A study of Homo sapiens with 36 samples.

Results

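The genes described here are 9 members of the complement system, C1R, C1S, C3, CFB, CFI, SERPING1, CD46, CD55 and CD59, out of 60675 genes in the table. They were listed by symbol and matched to Ensembl gene identifiers, and all 9 matched. The members were chosen by their log2 fold changes and calls against vehicle in these same libraries. The changes of the members under treatment are therefore given as a description, with no p-value. Tests are printed for comparisons that the choice did not use, and for genes of other lists under treatment. Those lists were also chosen with earlier results of these data known, so their p-values are no independent support.

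RNA sequencing was performed on 36 libraries from 2 human cell lines, in 12 groups of 3 replicates. SW1783 is an astrocytoma line and HT29 a colorectal adenocarcinoma line. Within each line, batch A held cells given 10 µM wortmannin, the positive control, which inhibits PI3K, and its own vehicle group. Batch B held cells given ACD, an extract made with hot water from the monkshood *Aconitum carmichaeli* Debeaux, at 500 µg/mL (high), 100 µg/mL (medium) or 20 µg/mL (low), and its own vehicle group. The labels name the extract as a water extract of Aconiti Lateralis Radix Preparata, a prepared root. Exposure lasted 24 h. The labels give the vehicle as 0.1% DMSO. The methods give a higher share of DMSO for the PBS solution used as vehicle. Extract in such a solution was diluted into the growth medium of the wells, so these shares need not conflict. SW1783 was grown in Leibovitz's medium without added CO2 and HT29 in DMEM with CO2, so that cell line and medium cannot be told apart. No label says that replicates were separate cultures, and p-values measure only the spread between these libraries.

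Complement is a cascade of blood proteins that marks and lyses foreign cells. C1r and C1s are the proteases of the C1 complex, which opens the classical pathway, and C1 inhibitor (SERPING1) blocks both. C3 is the central component that all pathways cleave, and factor B (CFB) supplies the protease of the alternative pathway that amplifies this cleavage. Factor I (CFI) cuts and inactivates C3b and C4b, with CD46 as a cofactor on the membrane. CD55 speeds the decay of the convertases that cleave C3, and CD59 blocks assembly of the membrane attack pore. The liver makes most of the plasma components, but epithelia, astrocytes and fibroblasts also make several of them.

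Total counts ranged from 15941255 to 33866644 per library in HT29 and from 18863863 to 26436867 in SW1783. A count of 0 allows up to 3 counts, or 0.0886 to 0.188 CPM in HT29, a scale on which every library has an equal total, and 0.114 to 0.159 CPM in SW1783, and this limit covers counting error only. Replicate 2 of the high dose in HT29 had the fewest counts and stood apart from its group. Log2 changes of members that rest on it are therefore also given without it. Values of genes of the other lists at that dose in HT29 are given only with it. Mitochondrial ribosomal RNA took 0.932% ± 0.025 (SD, n = 3) of counts in the SW1783 vehicle of batch B and 5.93% ± 0.15 at the high dose. In HT29 it took 1.18% ± 0.04 and 11.96% ± 0.634. The SW1783 libraries held VIM at 4076 to 4975 CPM, but the astrocyte markers GFAP and S100B did not exceed 0.261 and 0.253 CPM. HT29 held the epithelial marker EPCAM at 452 to 585 CPM. Hepatocyte ALB stayed at or under 0.085 CPM in both lines. PTPRC, a leukocyte gene, reached 3.28 to 14.2 CPM in SW1783 and at most 0.126 CPM in HT29. The summed level of the 5 leukocyte markers in SW1783 was 156 to 163 CPM in vehicle and 181 to 193 CPM at the high dose. Nearly all of that sum was CD68, at 135 to 188 CPM over the SW1783 libraries, so it does not describe leukocyte markers in general. The 5 markers taken for SW1783 itself summed to 9202 to 9476 CPM in vehicle and 7456 to 7472 at the high dose, and in the same libraries the 5 epithelial markers, nearly all of the sum being KRT18, went from 222 to 231 down to 68.7 to 75.1 CPM. In HT29 the epithelial markers summed to 4737 to 4864 CPM in vehicle and 4198 to 5249 at the high dose. The part of these shifts in the results was not tested.

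Gene positions were read from GENCODE v44 (GRCh38). C1S (chromosome 12, 6988259 to 7071032, plus strand) and C1R (chromosome 12, 7080214 to 7092540, minus strand) are neighbours 9181 bases apart with no coding gene between them. CD55 (chromosome 1, 207321519 to 207386804, plus strand) lies 365232 bases before CD46 (chromosome 1, 207752037 to 207795513, plus strand), with CR2, CR1 and CR1L between them. C3 lies on chromosome 19 (6677704 to 6730562, minus strand), CFI on chromosome 4 (109731008 to 109802150, minus strand) and CFB on chromosome 6 (31945650 to 31952086, plus strand). CD59 (33703010 to 33736479, minus strand) and SERPING1 (57597387 to 57619171, plus strand) are both on chromosome 11. CFB overlaps C2 and a readthrough gene on its own strand, and C1R overlaps C1RL in the same way. On their own strands, C3 overlaps GPR108 and a noncoding RNA gene, and C1S, CFI and CD59 each overlap another coding gene. CD46 overlaps a pseudogene on its strand. Reads of these members may be divided uncertainly with the genes they overlap. CD55 and SERPING1 overlap no annotated gene.

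RefSeq promoter windows, from 250 bases before to 50 after a start, were at hand for 6 of the 9 genes. The parts of these windows that lie outside annotated exons are shown for the 3 genes that were called differentially expressed at the high dose of ACD in SW1783. They are written 5′ to 3′ on the strand of the gene (GRCh38.p14). The intervals are chr1:207321428-207321518 for CD55, chr6:31945845-31945974 for CFB and chr4:109802151-109802249 for CFI. The CD55 and CFI stretches end just before the annotated gene, whereas the CFB stretch lies in an intron of the gene as annotated. Capitals mark a match to a searched motif.
CD55: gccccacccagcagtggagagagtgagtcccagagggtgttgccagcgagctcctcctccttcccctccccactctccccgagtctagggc
CFB: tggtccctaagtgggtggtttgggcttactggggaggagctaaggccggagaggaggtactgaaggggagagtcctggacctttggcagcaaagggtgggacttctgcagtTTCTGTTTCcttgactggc
CFI: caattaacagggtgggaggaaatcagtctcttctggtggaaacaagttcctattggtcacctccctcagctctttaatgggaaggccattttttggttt

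The letters searched on both strands, over the whole windows, were GGNNTTTCC (NF-kB), TTCNNNGAA (STAT), GAAANNGAA (interferon response), TTNNGNAA (C/EBP), TGACGTCA (CRE), TGATGNAA (ATF4 response) and TNGCGTG (the aryl hydrocarbon receptor). The CFB window held an interferon response match on the minus strand, at 139 bases before the start, and a STAT match, TTCCGGGAA, at 92 bases before it, inside an annotated exon. These motifs occur in 8.11% and 7.66% of all 35116 windows. The CFI window held 2 C/EBP matches, a motif present in 36.84% of windows, and the CD55 window held none of the 7 motifs. A match is a stretch of letters and not a shown binding site.

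In vehicle, the lines carried different parts of the system. SW1783 held transcripts of the classical pathway proteases, of C3 and of CFI, whereas HT29 held almost none of these and had more CD46. Compared per length (CPM per kilobase of the MANE Select transcript), the order in SW1783 vehicle of batch B was CD59 at 49.0 ± 0.598 (SD, n = 3), CD46 at 39.8 ± 1.36, C1R at 36.7 ± 1.06, CD55 at 31.9 ± 0.743, C1S at 23.1 ± 0.869, CFI at 13.9 ± 0.71, C3 at 10.0 ± 0.379, CFB at 3.31 ± 0.661 and SERPING1 at 0.204 ± 0.112. No neighbours in this order had overlapping ranges, but with all annotated exons as length C1R came above CD46. In HT29 the order was CD46 at 96.7 ± 6.63, CD59 at 25.5 ± 0.678, CD55 at 17.1 ± 0.927 and CFB at 0.975 ± 0.182 CPM per kilobase, followed by C1R and C1S, which did not differ beyond their spread, at 0.048 ± 0.009 and 0.044 ± 0.022. The transcripts actually used in these cells were not known.

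**Figure D1:**
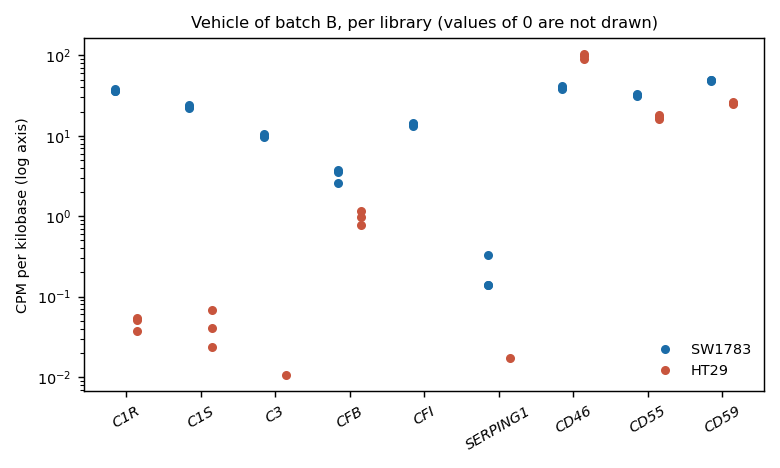
Levels of the 9 genes in the vehicle libraries of batch B, in CPM per kilobase on a log axis, a point per library (3 per line). C1R, C1S, C3 and CFI lie between 9.68 and 38.0 in SW1783, and HT29 points for these genes lie under 0.1 or are 0 and not drawn.

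The vehicle groups of batch B were tested between the lines with DESeq2's Wald test, adjusted over all genes with the Benjamini-Hochberg procedure. A gene was called differentially expressed (DEG) at an adjusted p under 0.05 and a change of more than 1.5-fold. All 9 genes were called, where 50.2% of 24197 tested genes were. C3 had 1002, 1255 and 1010 counts in the SW1783 libraries and 1, 0 and 0 in those of HT29 (adjusted p = 1.12e-22). CFI had 1717 counts over the 3 SW1783 libraries and 0 in those of HT29 (adjusted p = 9.93e-23). C1R and C1S had 5708 and 3873 counts in SW1783 against 8.36 and 8 in HT29 (adjusted p = 3.29e-78 and 3.48e-69 by DESeq2).

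The membrane regulators differed less. CD55 was higher in SW1783 by 0.92 ± 0.06 (SE) on the log2 scale (adjusted p = 2.34e-44, DESeq2) and CD59 by 0.96 ± 0.05 (adjusted p = 3.86e-79, DESeq2). CD46 was lower in SW1783, by a log2 change of -1.26 ± 0.06 (adjusted p = 1.17e-93, DESeq2). CFB was higher in SW1783 by 1.799 ± 0.243 (adjusted p = 4.69e-13, DESeq2). The SERPING1 call, with 24 counts in SW1783 and 1 in HT29 (adjusted p = 0.0033, DESeq2), was lost without replicate 2 of the SW1783 vehicle (adjusted p = 0.0535). The membrane regulators were thus the members that both lines held in quantity.

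The vehicles of batch A and batch B gave 0 calls among the 9 genes with DESeq2 and with edgeR, where 0.00348% of genes in SW1783 and 0% in HT29 were called. None had an unadjusted p under 0.05, and the smallest was 0.0559, for CD46 in SW1783, with a log2 difference of -0.08 ± 0.04. Same-numbered vehicles of both batches were closer to each other than any pair of libraries within a group of their line, so that they may not be independent cultures.

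In SW1783, the high dose of ACD left the members moving in different directions. CD55 and CFB were upregulated, CFI was downregulated, and the remaining 6 stayed under the fold threshold. The 3 calls among 9 genes stand beside 17.7% of 20050 genes called in that contrast, and nothing is read from the count. The list's median log2 change was 0.108, against -0.012 over all tested genes. In bulk RNA, fewer cells of a kind and less RNA per cell cannot be told apart.

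CD55, which shields host cells by taking C3 convertases apart, moved furthest. Its normalized counts in the SW1783 vehicle libraries were 1636, 1706 and 1670.4. They were 1776, 1757 and 1929.5 at the low dose, 2467, 2513 and 2575 at the medium dose and 4474, 4509 and 4756 at the high dose. Each dose group lay wholly above vehicle and the groups stood in the order of dose. Such separation was common in SW1783. Of all genes with an adjusted p, 26.2%, 50.3% and 59.2% lay apart from vehicle at the low, medium and high dose. Nothing is therefore read from separation alone, here or for the members below. The log2 changes were 0.12 ± 0.05 (SE), 0.59 ± 0.04 and 1.45 ± 0.04, the last a 2.74-fold change. The call at the medium dose sat at the fold threshold of 0.585 and was lost without vehicle replicate 1 (0.577) or medium replicate 3 (0.575).

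The change in CD55 can also be read against CD46, a neighbour on chromosome 1 with a related role, within each library and so without scaling between libraries. In SW1783 vehicle there were 0.624 ± 0.0309 (SD, n = 3) CD55 counts per CD46 count. The ratio was 0.679 ± 0.043 at the low dose, 0.949 ± 0.055 at the medium dose and 1.55 ± 0.055 at the high dose. CD55 thus went from fewer counts than CD46 to more. CD46 itself was at 2679 ± 90.6 normalized counts without ACD and 2947 ± 33.1 at the high dose, a log2 change of 0.14 ± 0.04.

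**Figure D2:**
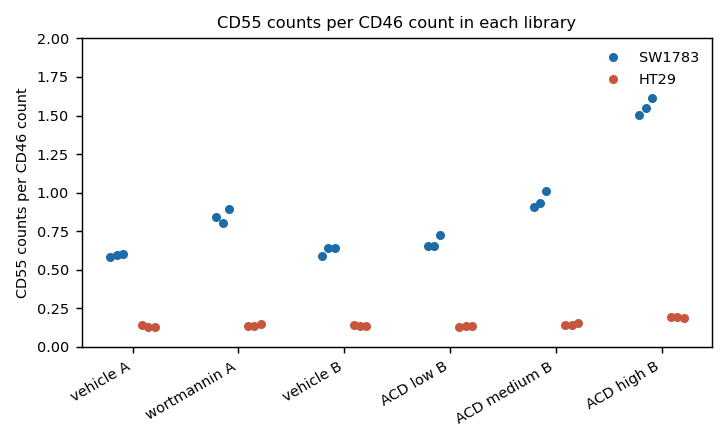
CD55 counts per CD46 count in each library, by group, with 3 points per group and cell line and the axis from 0. SW1783 rises from 0.624 in vehicle to 1.55 at the high dose of ACD, while HT29 goes from 0.138 to 0.191.

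CD59, the inhibitor of the terminal pore, went the other way at the membrane. Its normalized counts were 7509, 7567 and 7435 in vehicle and 5347, 5175 and 5282 at the high dose, with no overlap. The log2 change was -0.51 ± 0.03, under the 1.5-fold threshold, after -0.07 ± 0.03 at the low and -0.15 ± 0.03 at the medium dose. Of the summed CPM per kilobase of CD46, CD55 and CD59 (MANE Select length), CD59 held 40.6% ± 0.23 in vehicle and 20.8% ± 0.413 at the high dose. CD55 held 26.4% ± 0.637 and 52.7% ± 0.896. A rise in one share lowers the others, and the order depends on the length used. With all annotated exons as length, CD59 stayed above CD55 at the high dose, at 22.5 to 23.1 against 19.9 to 21.1 CPM per kilobase.

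CFI, whose product inactivates C3b, was graded with dose. The vehicle libraries held 584, 559.8 and 529 normalized counts, and the low dose 476, 499.8 and 469.8. The medium dose held 367, 425 and 378 and the high dose 302, 369 and 333. All treated libraries lay below all vehicle libraries, although medium and high doses overlapped. The log2 changes were -0.21 ± 0.09, -0.51 ± 0.09 and -0.73 ± 0.09, the last a fold of 0.603 against vehicle.

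CFB, the protease of the alternative pathway, was variable in vehicle, with 128, 179 and 190.5 normalized counts. The high dose held 266, 282 and 256, all above vehicle, and the change was 0.69 ± 0.15 on the log2 scale. The lowest vehicle library, replicate 1, decided this call, which was lost at 0.54 without it. The low and medium doses overlapped vehicle, at 0.11 ± 0.15 and 0.27 ± 0.15.

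**Figure D3:**
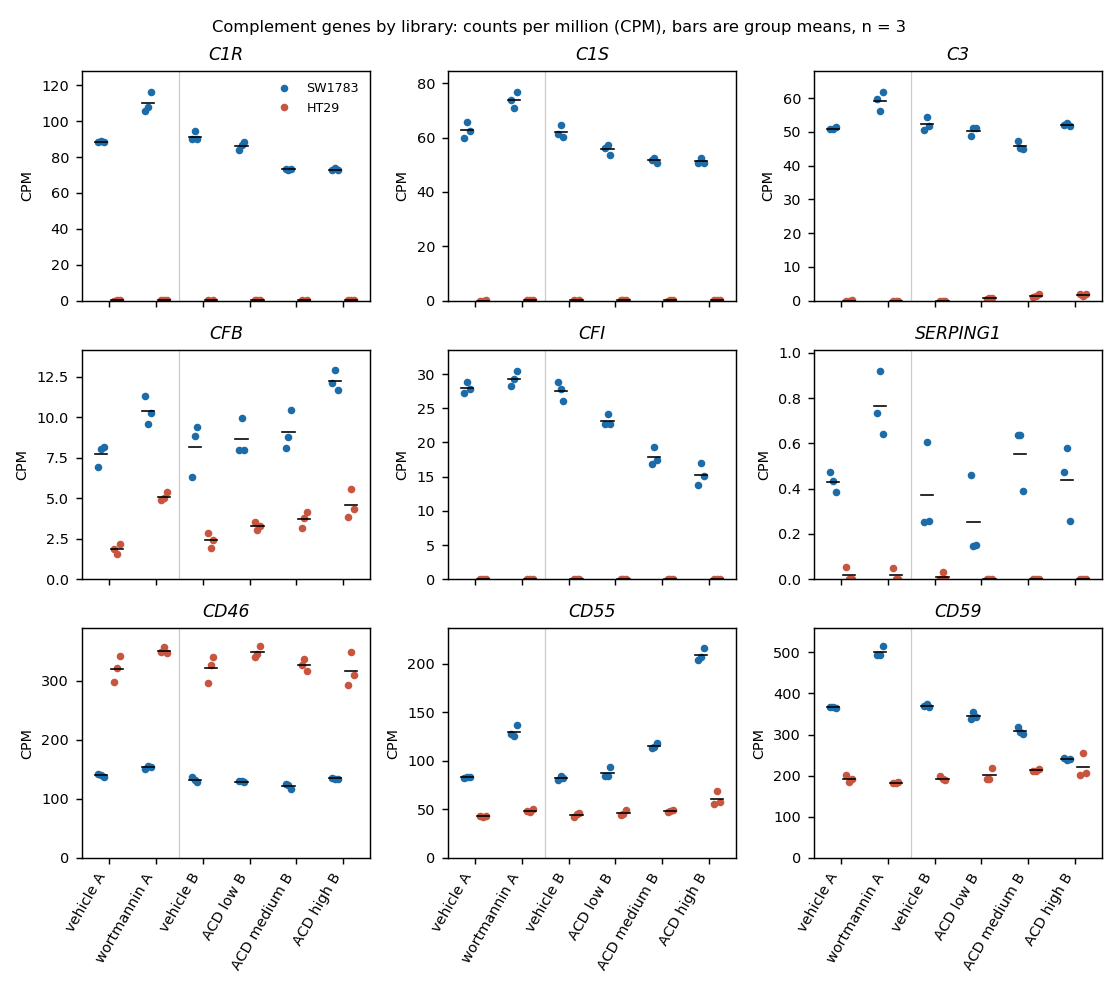
CPM of each gene in all 36 libraries, a panel per gene, with points for libraries and short bars for group means (n = 3). In SW1783, CD55 is highest and CFI and CD59 are lowest at the high dose, while C1R, C1S, CFI and SERPING1 lie at or near 0 in HT29.

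The early components moved little in SW1783. C3 was at 1059 ± 37.0 normalized counts without ACD and 1142 ± 6.96 at the high dose, with log2 changes of -0.02 ± 0.06, -0.08 ± 0.06 and 0.11 ± 0.06 from low to high. C1R changed by -0.21 ± 0.04 and C1S by -0.16 ± 0.05 at the high dose. Both proteases kept close proportion, with 1.47 ± 0.017 C1R counts per C1S count in vehicle and 1.42 ± 0.012 at the high dose. SERPING1, the inhibitor of both, stayed between 3 and 15 counts per library in batch B, too few to resolve a change.

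Wortmannin gave SW1783 a different set of values. CD55 was again called, at 1954, 1946 and 1964 normalized counts in vehicle and 2949, 2912 and 3165 with the inhibitor, a log2 change of 0.62 ± 0.04. It was the 1 call among the 9 genes, in a contrast where 2.71% of 14511 genes were called. CD59 had 8634 ± 26.5 and 11594 ± 294 normalized counts, a log2 change of 0.43 ± 0.02, while under the high dose of ACD its change had the opposite sign. C1R at 0.29 ± 0.05, C1S at 0.21 ± 0.05, C3 at 0.19 ± 0.06, CFB at 0.40 ± 0.14 and CD46 at 0.11 ± 0.04 were all under the fold threshold. CFI was at 0.04 ± 0.08, with overlapping groups. SERPING1 had 11.2, 10.1 and 9.07 normalized counts in vehicle and 16.97, 21.4 and 14.9 with wortmannin, and its log2 change of 0.80 ± 0.52 got no adjusted p. The wortmannin and ACD groups were in different batches and had different vehicles.

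**Figure D4:**
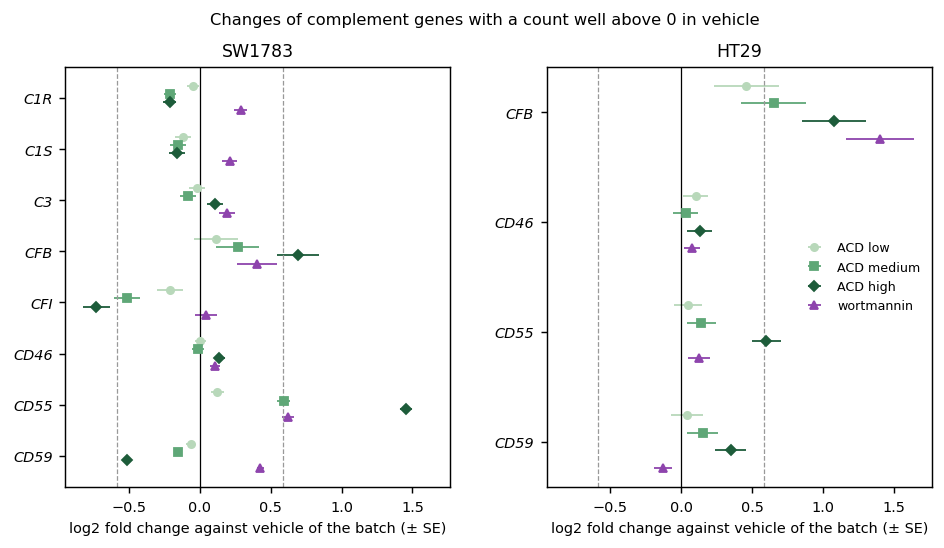
Log2 fold changes against the vehicle of the same batch, with SE as bars, for genes with counts well above 0 in vehicle; dashed lines mark a 1.5-fold change. CD55 reaches 1.45 in SW1783 at the high dose, CFI lies at -0.73 there at that dose, and CFB is highest with wortmannin in HT29 at 1.40.

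In HT29, complement transcripts were few in kind but C3 appeared with ACD. The vehicle libraries of batch B held 1, 0 and 0 C3 counts. There were 14, 23 and 17 at the low dose, 25, 40 and 47 at the medium dose and 44, 20 and 63 at the high dose. No treated library overlapped vehicle, and the low count of 20 was in the shallow replicate 2, where it corresponds to 1.25 CPM. Of all HT29 genes with an adjusted p, 20.1%, 27.3% and 22% also lay apart from vehicle at the low, medium and high dose.

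**Figure D5:**
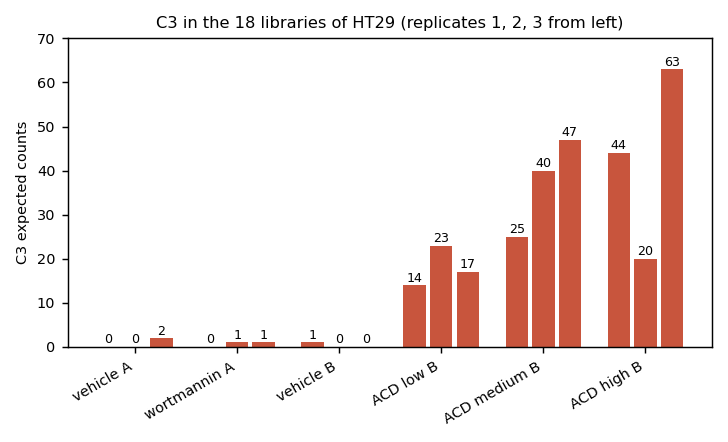
C3 expected counts in each of the 18 HT29 libraries, a bar per library, with the axis from 0 and the count written above. Vehicle and wortmannin libraries hold 0 to 2 counts and ACD libraries 14 to 63.

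Summed over 3 libraries, 127 counts at the high dose against 1 in vehicle gave a ratio of 124 per count sequenced, with an exact 95% interval from 21.9 to 4953. The ratio was 107 (18.9 to 4281) at the medium dose and 50.4 (8.67 to 2026) at the low dose. These intervals cover counting error only. They overlap widely, and their width comes from the single vehicle count. DESeq2's fitted log2 changes of 6.92, 6.61 and 5.51 depend on how it treats counts near 0 and are no bound. The call at the low dose was lost without vehicle replicate 2, at a log2 change of 4.79, and got no adjusted p without high replicate 2. Without that library the high dose fit gave 7.04.

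The level reached was low beside that of the astrocytoma line. C3 stood at 1.65 ± 0.346 CPM (SD, n = 3) at the high dose in HT29, 1.49 ± 0.425 at the medium and 0.709 ± 0.192 at the low dose, against 52.2 ± 0.497 CPM at the high dose in SW1783. Wortmannin gave 0, 1 and 1 counts against 0, 0 and 2 in its vehicle, a ratio of 1.15 (0.083 to 15.8).

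CFB was also called in HT29 at the high dose. Its normalized counts were 68.8, 45.4 and 57.5 without ACD and 99.3, 152 and 111 at the high dose, a log2 change of 1.08 ± 0.23. The highest value came from replicate 2, and without it the change was 0.91 and still called. Groups were apart at the low and medium doses too, with 0.46 ± 0.23 and 0.65 ± 0.23, which were not called; the medium dose was called at 0.65 without replicate 2 of the high dose. With wortmannin, CFB had 102, 104 and 113 normalized counts against 41.7, 33.5 and 46.8 in vehicle, 2.64-fold and 1.40 ± 0.24 on the log2 scale. It was the single call among the 9 genes there, where 2.74% of 13144 genes were called.

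CD55 in HT29 had 1007, 1043 and 1089.5 normalized counts without ACD and 1453, 1867 and 1463 at the high dose. Its log2 change of 0.60 ± 0.10 was called but fell to 0.48, under the threshold, without replicate 2 of the high dose, and to 0.576 without vehicle replicate 1. CD55 counts per CD46 count were 0.138 ± 0.0021 in vehicle and 0.191 ± 0.0048 at the high dose, and all 3 high dose libraries lay above all 3 vehicle libraries. CD59 was at 0.35 ± 0.11, opposite in sign to SW1783, and CD46 at 0.13 ± 0.09, or at 0.20 and 0.02 without replicate 2 of the high dose. In all, 3 of the 9 genes were called at the high dose, beside 3.1% of 15300 genes, 1 at the medium dose (0.793% of 17026) and 1 at the low dose (0.282% of 17026), and only 5, 6 and 6 of the 9 got an adjusted p. In SW1783, 1 was called at the medium dose (3.81% of 14082) and 0 at the low dose (0.103% of 8707; edgeR also called 0).

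CFI and SERPING1 were at 0 in the high and low dose libraries of HT29, and CFI had 1 count at the medium dose. A count of 0 allows up to 0.188 CPM in the shallowest. C1R had 8.36 counts without ACD and 23.02, 12.35 and 30 with rising dose, which correspond to 0.12, 0.301, 0.171 and 0.391 CPM. The vehicle of batch A held 17 counts, or 0.229 CPM, above the medium dose. C1S had 8 counts in both vehicle and the high dose. CFI, which inactivates C3b, thus lay at the counting limit in the line in which C3 appeared. Mitochondrial ribosomal RNA was higher than in vehicle at every dose in SW1783, most at the medium dose, and at the medium and high doses in HT29. Its part in these results was not tested.

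Set side by side as an interaction (SW1783 minus HT29, log2), the high dose moved CD55 more in SW1783, by 0.82 ± 0.10, and CD59 in the opposite direction, by -0.90 ± 0.11. With C3 and C1R these were 4 of the 9 genes past the thresholds, beside 15.2% of all genes. At the medium and low doses C3 was the 1 member past them (3.34% and 0.267% of all genes), and with wortmannin CFB was, at -1.03 ± 0.23 (3.42%).

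Other complement genes came from a list of 48. In SW1783 vehicle 16 of them had a mean of 10 or more normalized counts, led by CLU, and in HT29 10 had. At the high dose in SW1783, 2 rose and 4 fell of the 22 with an adjusted p, with a median of -0.251, where 17.7% of all genes were called in either direction and the median over all tested genes was -0.012. THBD, thrombomodulin, an anticoagulant receptor of endothelium that also promotes inactivation of C3b, had 115, 113 and 108 normalized counts without ACD and 1445, 1537 and 1682 at the high dose. Its log2 change was 3.80 ± 0.11 (adjusted p = 4.11e-265, DESeq2), after 1.58 ± 0.12 at the medium dose (adjusted p = 2.27e-40). COLEC12, a scavenger receptor of the collectin family, fell from 399 ± 15.7 to 79.1 ± 4.55, by 2.34 on the log2 scale (adjusted p = 1.91e-62). C1RL, a C1r-like protease gene that shares its locus with C1R, fell by 0.88 (adjusted p = 1.36e-15).

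Among the others that were called in SW1783 at that dose, all with means under 100, C2 rose, and C3AR1 and SUSD4 fell, which were named after their values were seen. C2 overlaps CFB on the same strand. With wortmannin, ITGB2, the integrin chain of complement receptors 3 and 4, rose by 0.63 ± 0.15 (adjusted p = 0.000138, DESeq2) in SW1783, as did C5AR2, and SUSD4 fell, of 13 with an adjusted p, beside 2.71% of all genes called. In HT29, 1 of 14 was called at the high dose, ITGAM at 0.78 ± 0.26 (adjusted p = 0.0402), beside 3.1% of all genes. Of the 48 genes, 20 had no count in the SW1783 vehicle of batch B and 25 none in that of HT29.

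Cytokines and their signalling factors that are known to act on complement genes were followed through a list of 20. In SW1783, IL6 rose from 79.2 ± 8.42 to 887 ± 51.0 normalized counts at the high dose (3.48 ± 0.15, adjusted p = 8.21e-118, DESeq2). LIF rose by 2.18 ± 0.07, IL1B by 1.55 ± 0.17, CEBPB by 1.46 ± 0.16 and IRF1 by 1.25 ± 0.07, and SOCS3, a feedback inhibitor of STAT3 signalling, fell by 0.75 (adjusted p from 1.01e-193 to 1.49e-13). In all 5 rose and 2 fell of 19, with 17.7% of all genes called. In HT29, LIF rose by 0.71 ± 0.11 and IFNGR1 by 0.73 ± 0.18 at the high dose (adjusted p = 5.79e-09 and 0.0021), and IL6 was at 0 to 0.79 normalized counts.

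A list of 16 acute-phase and host-defence genes showed what moved beside C3 in HT29. At the high dose 6 of 10 with an adjusted p rose, among them CXCL1, a neutrophil chemokine, at 39.7 ± 6.96 normalized counts in vehicle and 650 ± 161 with ACD (4.05 ± 0.21, adjusted p = 6.84e-78, DESeq2). CXCL8 rose by 3.09 ± 0.26, ICAM1 by 1.25 ± 0.14 and BIRC3 by 1.09 ± 0.14. At the medium dose 6 of 11 rose and at the low dose 4 of 11, where the shares of all genes called were 3.1%, 0.793% and 0.282% at the high, medium and low dose. In SW1783 at the high dose, where 17.7% of all genes were called, 7 rose and 1 fell of 12, with CXCL8 at 4.42 ± 0.11, while C3 was not called. The list's median was 1.174 in HT29 and 1.522 in SW1783 at the high dose, against 0.011 and -0.012 over all tested genes.

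The genes most like C3 were sought by Pearson correlation of log2(normalized count + 1) over the 18 libraries of a line. In HT29 they were CXCL1 (0.946), TIPARP (0.945), CYP1B1 (0.934), MCM5 (0.928) and CDK2 (0.927) among 14882 genes. TIPARP and CYP1B1, known targets of the aryl hydrocarbon receptor, went from means of 1518 and 1121 normalized counts in vehicle to 4364 and 7907 at the high dose. In SW1783 they were DUSP4 (0.908), YIPF4 (0.905), LINC00963 (0.904), HDAC5 (0.901) and DBP (0.9) among 15455 genes. CFB ranked far lower in both, at 0.533 in HT29 and 0.547 in SW1783. These libraries share treatment, batch and depth, and the values carry no p.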

How the data were processed

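The authors prepared directional mRNA libraries, sequenced paired ends on an MGI system, removed adapters (Trim Galore 0.6.5), aligned to GRCh38 with STAR 2.7.3a per the submitters' processing notes (the methods name another STAR version), and counted genes with RSEM 1.3.3. The deposited values are RSEM expected counts per gene and library, not normalized. The strand setting of RSEM is not given in the sources used here. Counts were rounded to whole numbers (8.84% were not whole), and 56558 of 60675 identifiers matched a symbol in GENCODE v44.

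Tests used DESeq2 1.42.0 in R 4.3.3 (Wald test, two-sided, default size factors and independent filtering; adjusted p under 0.05 and absolute log2 change over 0.585). The 12 libraries of a line in batch B shared a fit, as did the 6 of batch A, the 6 vehicle libraries of batch B for the lines, and 24 or 12 libraries for interactions. Normalized counts are DESeq2's, within a fit. On simulated data, 98% and 99% of 2-fold changes (log2 1) were recovered in the SW1783 and HT29 high dose designs. The changes were planted only in genes above a set count in vehicle, with the same dispersion for every gene and no outlying library. C1R, C1S, C3, CFB, CFI and SERPING1 in HT29 and SERPING1 in SW1783 lay under that count, so the rates do not cover them. Same-numbered libraries of treatment and vehicle did not deviate together in every pair, so no pairing was used. Same-numbered vehicles of batches A and B did, with correlations of 0.189 to 0.505 in HT29 and 0.081 to 0.193 in SW1783. Vehicles of other numbers gave -0.411 to 0.176 in HT29 and -0.127 to 0.025 in SW1783. Alternatives were edgeR 4.0.16, TMM factors, a low-count filter (10 counts in 3 libraries), a replicate block, no fold threshold, 2-group fits, leaving out each library, and independent filtering at 0.05, the last chosen after seeing the data. All 9 genes are named, and from each list the called genes with a mean of 100 or more, at most 6 per contrast; some that the rule would name are not reported here. The genes and lists were chosen with earlier results of these data known.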

Additional observations from a re-analysis of the deposited data

Results flagged for a closer look

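Differences between the lines in the response to treatment, tested as an interaction in DESeq2 and given as SW1783 minus HT29 on the log2 scale, passed the thresholds for several members. They are built from the contrasts that chose the genes and are a description. C3 differed by -6.88 ± 1.19 (SE) at the high dose, -6.71 ± 1.19 at the medium dose and -5.54 ± 1.20 at the low dose, all resting on HT29 vehicle libraries with 1 count in total. CD55 differed by 0.82 ± 0.10 and CD59 by -0.90 ± 0.11 at the high dose, where the CD59 change was -0.51 in SW1783 and 0.35 in HT29. C1R differed by -2.27 ± 0.58 at the high dose, on 8.36 and 30 counts in HT29. CFB differed by -1.03 ± 0.23 with wortmannin. With the shallow HT29 high dose library (replicate 2) left out, the high dose values were -6.97 for C3, 0.93 for CD55, -0.76 for CD59 and -2.29 for C1R, all still past the thresholds. The shares of all genes past the thresholds were 15.2%, 3.34%, 0.267% and 3.42% at the high, medium and low dose and with wortmannin.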

How the results depend on the processing

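The members called were the same in number with edgeR, TMM factors and independent filtering at 0.05, the last chosen after seeing the data. Without the fold threshold 7, 5 and 7 members were called in SW1783 at the high and medium dose and with wortmannin, 4 against 3 in HT29 at the high dose (CD59 was gained), and 3 in the interactions at the medium dose and with wortmannin. The other complement, cytokine and acute-phase genes called over all contrasts were 12, 15 and 29, and 20, 31 and 39 without the fold threshold. The fit on the 2 groups compared left 0 members at the low dose in HT29. Leaving out a library gave 0 to 1 members in SW1783 at the medium dose, 1 to 2 in HT29 at the medium dose, 0 to 1 in HT29 at the low dose and 0 to 1 in the low dose interaction, which was lost without HT29 vehicle replicate 2. The low-count filter dropped SERPING1. A replicate block left 0 members in the wortmannin interaction, where CFB stayed at -1.03 but lost its call, and changed no other call of a member. It cut the genes called with wortmannin from 393 to 253 in SW1783, from 360 to 215 in HT29 and from 444 to 270 in the interaction. With edgeR the genes called were 912, 131, 803 and 706 for SW1783 medium, low and wortmannin and HT29 wortmannin, against 537, 9, 393 and 360, and 134 and 685 for the low dose and wortmannin interactions, against 33 and 444. Without the fold threshold all genes called were 9016, 4157, 311 and 4717 in SW1783 (high, medium, low, wortmannin), 1263, 338, 93 and 2592 in HT29, and 5105, 1571, 115 and 2030 in the interactions. Between the SW1783 vehicles edgeR called 55 genes and the low-count filter 3, against 1. Leaving out a library gave as few as 5 genes in SW1783 at the low dose, 88 in HT29 at the medium and 25 at the low dose. The 2-group fit called 301 genes against 474 at the high dose in HT29. The cause was not tested. In HT29, C3 in vehicle and C1R, C1S, CFI and SERPING1 lie near the counting limit.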

Other observations

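The lines also differed in vehicle in genes that surround the members. C4A was higher in SW1783 by 6.16 ± 0.39 and C4B by 5.30 ± 0.34 (adjusted p = 8.93e-56 and 3.00e-55, DESeq2), but these are near-identical copies whose reads RSEM divides by a model. Of the cytokine receptors, IL1R1 was higher in SW1783 by 5.57 ± 0.19 and IL6ST by 3.00 ± 0.07 (DESeq2, adjusted p of 1.31e-197 for IL1R1). Of 27 other complement genes with an adjusted p, 13 were higher and 8 lower in SW1783, where 50.2% of all genes were called.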
